A study of Homo sapiens with 6 samples.

Results

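Iron-sulfur client proteins outside the respiratory chain are enzymes and structural proteins of the nucleus, cytosol and mitochondria that hold an iron-sulfur cluster and are not subunits of the respiratory chain. The gene set listed 36 such genes by name, and 35 of them matched a gene of GENCODE release 44, while no gene of that release is named NUBP3. The list rests on what the proteins are known to hold and uses no measured value in its rule, although it was drawn up with earlier results of these data known, and its genes stand among 62252 genes in the files. Iron-sulfur clusters are built on mitochondrial scaffold proteins from iron and the sulfur of cysteine. A separate cytosolic machinery then assembles clusters and hands them to clients in the cytosol and nucleus. In these clients the cluster may hold a fold in shape, as in DNA polymerases and helicases, or start radical chemistry on S-adenosylmethionine (radical SAM enzymes), as in enzymes that modify tRNA or build lipoate and the molybdenum cofactor. Protein and cluster content were not measured in these libraries. The comparison asked how the mRNA levels of the clients stood after iron was withdrawn.

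Polyadenylated RNA was sequenced from K562 cells, an established human erythroid leukemia line. The Chelator group (3 libraries) was treated overnight with 10 µM 21H7, a cell-permeable iron chelator, and the DMSO group (3 libraries) with a matched volume of the solvent. Both groups shared line, medium and duration, and neither carried a genetic change. The labels describe the libraries as biological replicates without naming the cultures behind them, so p-values measure the spread between these libraries.

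The libraries held 78.6 to 101.1 M estimated counts each (M, 1e+06). Libraries of a group were distinct by their counts, and n = 3 in each group throughout. The difference in counts between libraries was measured as a mean chi-square per gene. In DMSO it was 63.5 and 44.3 for pairs with replicate 2 and 8.52 for replicates 1 and 3. In Chelator it was 29.9 and 28.1 for pairs with replicate 1 and 6.54 for replicates 2 and 3. Of the 8 erythroid markers checked, all were detected, and their summed level was 11707 to 12981 TPM (a level per transcript length, scaled to the same sum in each library) in DMSO and 16393 to 17515 TPM in Chelator. HBE1, HBG1 and HBG2, the embryonic and fetal globins, rose, and KLF1, LMO2 and TAL1, erythroid transcription factors, fell. Markers of T and B cells summed to 11.8 to 17.8 TPM in DMSO and 42.4 to 44.3 TPM in Chelator, with 3 of 5 higher and MS4A1 at 0 in all 6 libraries. Markers of epithelial and stromal cells summed to 63.0 to 69.5 TPM in DMSO and 49.4 to 53.9 TPM in Chelator, with 2 of 5 higher and 1 lower. A fragment length was estimated in each library as the median, over long transcripts without counts, of length minus effective length. It was 252 to 264 bases in DMSO and 200 to 218 bases in Chelator. Fragment length and treatment therefore cannot be told apart, and the part of the marker genes and of fragment length in the results that follow was not tested. In RNA from many cells, fewer cells of a type and less RNA per cell cannot be told apart either.

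More client genes fell than rose after chelation. Of the 34 members with an adjusted p, 18 fell, 4 rose and 12 did not pass (DESeq2 Wald test, Benjamini-Hochberg adjusted p under 0.05 over all genes tested). Over all 24542 genes with an adjusted p, 18.3% fell and 19.5% rose. Members were mostly well expressed, and among the 8942 genes with a mean normalized read count of at least 1000, 38.2% fell and 24.8% rose, beside 18 lower and 3 higher of the 30 members above that level. The median log2 fold change (Chelator over DMSO) was -0.27 over the 34 members and 0.016 over all genes, and it was -0.31 and -0.09 above a mean count of 1000. Setting the mean change of all genes to 0 moved the median of all genes to -0.165 and that of the members to -0.451, with 21 members lower and 1 higher. Over coding transcripts alone 17 members were lower and 8 higher. With a 2-fold threshold added, DPH2 and RTEL1 were lower and RSAD2 was higher, beside 2.6% and 8.18% of all genes in those directions. The groups did not overlap for 19 members that were lower and 6 that were higher, beside 23.7% and 25.5% of all genes. Above a mean count of 1000 this held for 19 and 5 of 30 members, beside 41.6% and 27.9% of genes.

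Levels differed widely between members. ABCE1, which splits ribosomes after termination, had the highest level, 173 ± 12.6 TPM in DMSO (mean ± SD, n = 3), followed by POLD1, the catalytic subunit of DNA polymerase delta, and DPH2, a subunit of the radical enzyme that starts diphthamide synthesis. Between these and MOCS1 at 4.57 ± 0.188 TPM lay most of the other members. EXO5 stood at 1.79 ± 0.330 TPM and RSAD2 at 0.158 ± 0.0329 TPM. DPYD, AOX1 and XDH, which degrade pyrimidines, aldehydes and purines, were at or near 0 in every library, at 5 to 11 estimated counts for DPYD and 7 to 11 for AOX1. XDH had 0 counts in each DMSO library, which allows up to 3 by counting error alone, and 3, 5 and 3 counts in Chelator, so no fold is given for it.

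**Figure D1:**
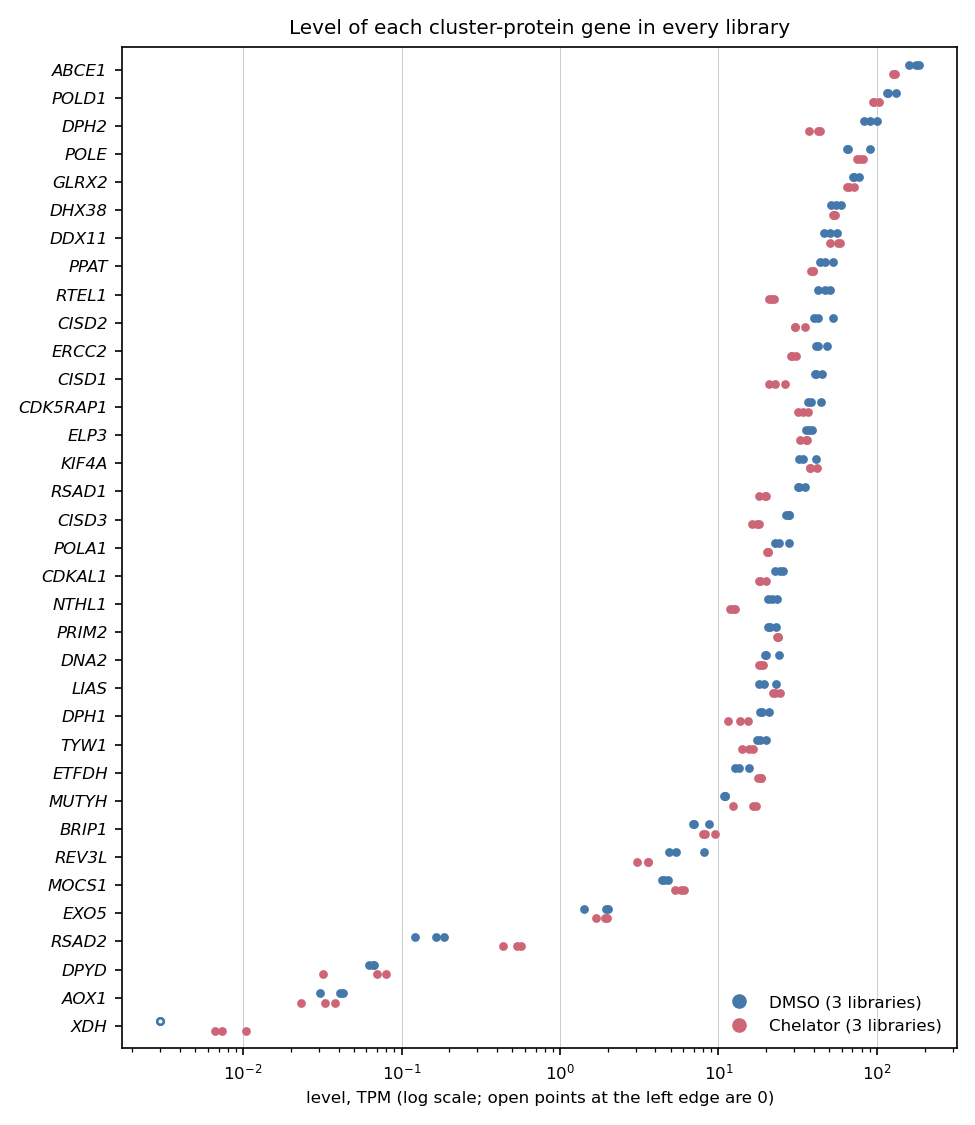
Level in TPM (log axis) of each of the 35 matched members, with 1 point per library in DMSO (blue) and Chelator (red), ordered by the DMSO mean. Members range from ABCE1 at 128 to 173 TPM (group means) down to XDH, whose 3 DMSO libraries at 0 are drawn as open points at the left edge, and the Chelator points of DPH2, RTEL1, CISD1, NTHL1 and RSAD1 lie clear to the left of their DMSO points.

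The enzymes of translation were mostly lower: 6 of 7 genes for tRNA modification, diphthamide synthesis and ribosome recycling fell and none rose, with a median log2 fold change of -0.40. Diphthamide is a modified histidine of elongation factor eEF2, and DPH1 and DPH2 form the radical enzyme for its first step. DPH2 (chr1:43970000-43973369, plus strand, GRCh38) had 10728, 10120 and 9677 normalized read counts in DMSO and 4229, 4662 and 4696 in Chelator. Every Chelator library lay below every DMSO library. The log2 fold change was -1.17 (SE 0.078, adjusted p = 1.31e-48), and the gene fell by 55.5%. DPH1 (chr17:2030137-2043898, plus strand) had 3525, 3288 and 3373 normalized read counts in DMSO and 2033, 2568 and 2359 in Chelator. Its groups were also apart, and its log2 fold change was -0.55 (SE 0.10, adjusted p = 2.74e-07). DPH1 shared 38.1% of its 31-base words with OVCA2, a gene on the same strand that overlaps it, and the summed level of both had a log2 ratio of -0.35.

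Among the tRNA enzymes, CDKAL1 and CDK5RAP1, the methylthiotransferases that act beside the anticodon in the cytosol and in mitochondria, fell by 0.40 (SE 0.088) and 0.25 (SE 0.087) on the log2 scale. The CDK5RAP1 call was lost with edgeR (adjusted p = 0.0538) and without DMSO replicate 1 (0.0641) or Chelator replicate 2 (0.0736). TYW1, a radical SAM enzyme of wybutosine synthesis, fell by 0.30 (SE 0.095). It shared 54.1% of its 31-base words with its copy TYW1B, whose log2 fold change was 0.075 (SE 0.11, adjusted p = 0.658), so its counts depend on how reads were divided between the pair, and the summed level of both had a log2 ratio of -0.18. ELP3, the catalytic subunit of Elongator, had 5249, 4835 and 5355 normalized read counts in DMSO and 5054, 4662 and 4397 in Chelator, groups that overlapped (log2 fold change -0.13, SE 0.084, adjusted p = 0.234). It passed as lower with centring on the mean (-0.31, adjusted p = 0.000934), with no length offset (-0.18, adjusted p = 0.032) and with trends in GC content and length removed (-0.19, adjusted p = 0.0369). ABCE1 fell by 0.46 (SE 0.073) on the log2 scale and is taken up again with its transcripts.

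The CDGSH proteins hold clusters on outer mitochondrial, endoplasmic reticulum and mitochondrial matrix sites, for CISD1 (mitoNEET), CISD2 and CISD3 in turn, and all 3 fell. CISD1 (chr10:58269162-58289586, plus strand) had 3401, 3145 and 3393 normalized read counts in DMSO and 2079, 1560 and 1740 in Chelator, a log2 fold change of -0.89 (SE 0.11, adjusted p = 1.69e-14). CISD3 (chr17:38730341-38735605, plus strand) had 5429, 4622 and 5179 in DMSO and 3021, 3138 and 3129 in Chelator, a log2 fold change of -0.71 (SE 0.085, adjusted p = 6.41e-16). CISD2 (chr4:102868974-102892807, plus strand) had 6180, 6860 and 6412 in DMSO and 5120, 4194 and 4291 in Chelator, a log2 fold change of -0.52 (SE 0.094, adjusted p = 3.04e-07). In each gene every Chelator library was below every DMSO library, and Chelator replicate 1 was the highest of its group for CISD1 and CISD2. CISD1 passed the 2-fold threshold without that library (-1.0), with centring on the mean (-1.06), with no transcript length offset (-1.23) and over coding transcripts alone (-1.18). CISD3 shared 57.7% of its 31-base words with PCGF2 on the opposite strand, which had a log2 fold change of -0.26 (SE 0.093), and the summed level of both had a log2 ratio of -0.51.

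**Figure D2:**
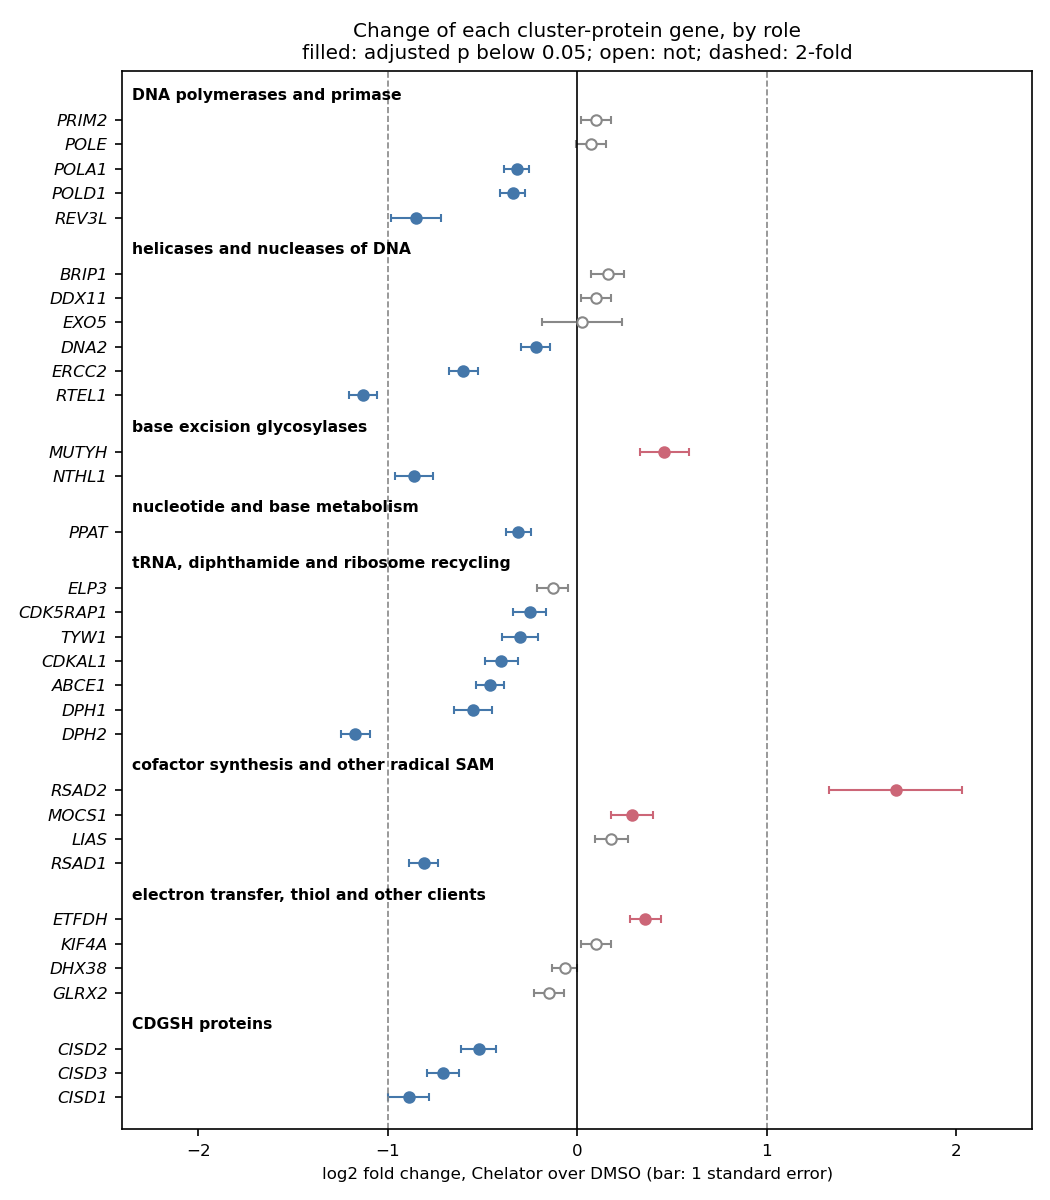
Log2 fold change (Chelator over DMSO, x axis) with 1 standard error for the 32 members with a mean normalized read count of at least 10, grouped by role. Filled points passed an adjusted p under 0.05 (18 lower in blue, 4 higher in red), open points did not, and beyond the dashed lines at a log2 fold change of -1 and 1 lie DPH2, RTEL1 and RSAD2.

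Genes of DNA synthesis were divided. Of 5 genes for polymerases and primase, 3 fell and none rose. REV3L (chr6:111299028-111483715, minus strand), the catalytic subunit of translesion polymerase zeta, had 3565, 4481 and 3140 normalized read counts in DMSO and 2222, 2117 and 1860 in Chelator. Its DMSO libraries were more scattered than its Chelator libraries, and the groups did not overlap (log2 fold change -0.85, SE 0.13, adjusted p = 2e-10). REV3L passed the 2-fold threshold with centring on the mean (-1.03). POLD1 fell by 0.34 (SE 0.066) on the log2 scale, and POLA1, the catalytic subunit of polymerase alpha, fell by 0.32 (SE 0.067). POLE, the leading-strand polymerase, had a log2 fold change of 0.072 (SE 0.079, adjusted p = 0.528) and PRIM2, the large primase subunit, 0.10 (SE 0.081, adjusted p = 0.363). Setting the mean change of all genes to 0 turned the sign of both, to -0.11 and -0.077, while POLE passed as higher without DMSO replicate 2 (0.15, adjusted p = 0.0197) and PRIM2 over coding transcripts alone (0.20, adjusted p = 0.0143).

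Of 6 helicases and nucleases of DNA, RTEL1, ERCC2 and DNA2 fell and none rose. RTEL1 (chr20:63657810-63696253, plus strand), a helicase that unwinds telomeric loops, had 7853, 7854 and 8480 normalized read counts in DMSO and 3813, 3716 and 3534 in Chelator. The groups were far apart and tight, with a log2 fold change of -1.13 (SE 0.074, adjusted p = 1.91e-50), and the gene fell by 54.3%. Over coding transcripts alone it was -0.96, and with no length offset -0.98, both short of the 2-fold threshold. RTEL1 shared 54.4% of its 31-base words with the readthrough gene RTEL1-TNFRSF6B, which fell by 0.51 (SE 0.11), and the summed level of both had a log2 ratio of -1.03. ERCC2 (chr19:45349837-45370918, minus strand), the XPD helicase of transcription factor TFIIH, had 10632, 10535 and 10824 normalized read counts in DMSO and 7587, 6585 and 6922 in Chelator, without overlap (log2 fold change -0.60, SE 0.076, adjusted p = 3.09e-14). DNA2, a helicase and nuclease of end resection, fell by 0.22 (SE 0.079, adjusted p = 0.016), and it lost that call with edgeR (adjusted p = 0.0665), with TMM size factors (0.0576), over coding transcripts alone (0.136), with trends in GC content and length removed (0.20) and without Chelator replicate 2 (0.0815) or 3 (0.0585). BRIP1 (FANCJ), DDX11 and EXO5 had log2 fold changes of 0.16 (SE 0.087), 0.10 (SE 0.078) and 0.025 (SE 0.21), none of which passed, and each turned sign when the mean change of all genes was set to 0. BRIP1 passed as higher with TMM size factors (0.21, adjusted p = 0.0467), over coding transcripts alone (0.20, adjusted p = 0.00924) and with trends in GC content and length removed (0.35, adjusted p = 0.000303).

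Of the pair of base excision glycosylases, NTHL1 fell and MUTYH rose. NTHL1 (chr16:2039815-2047866, minus strand), which removes oxidized pyrimidines, had 1606, 1465 and 1506 normalized read counts in DMSO and 893, 781 and 844 in Chelator, and the groups did not overlap (log2 fold change -0.86, SE 0.10, adjusted p = 2.66e-15). NTHL1 passed the 2-fold threshold with centring on the mean (-1.04) and with trends in GC content and length removed (-1.22). MUTYH, which removes adenine opposite oxidized guanine, had 1171, 977 and 1151 in DMSO and 1247, 1587 and 1693 in Chelator, a rise of 0.46 on the log2 scale (SE 0.13, adjusted p = 0.00234). The MUTYH call was lost with centring on the mean (0.28, adjusted p = 0.0829) and with trends in GC content and length removed (0.18, adjusted p = 0.241). MUTYH overlaps TOE1 on the opposite strand, which fell by 0.30 (SE 0.085), and the summed level of both had a log2 ratio of 0.062. Whether the counting used strand is not given in the sources used here, so reads of such a pair cannot be told apart with certainty. PPAT, the amidotransferase that opens purine synthesis, was the only well expressed gene of nucleotide and base metabolism in the set, and it fell by 0.31 (SE 0.066, adjusted p = 1.21e-05).

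The radical SAM enzymes of cofactor synthesis and their relatives went in both directions. RSAD1 (chr17:50478860-50485974, plus strand), a relative of bacterial heme-handling radical SAM proteins, had 4969, 4574 and 4805 normalized read counts in DMSO and 2646, 2764 and 2777 in Chelator, groups without overlap (log2 fold change -0.81, SE 0.076, adjusted p = 5.31e-25). RSAD1 passed the 2-fold threshold over coding transcripts alone (-1.0) and with trends in GC content and length removed (-1.03). RSAD2 (viperin; chr2:6865557-6898239, plus strand), an interferon-induced antiviral enzyme, had 47.5, 26.0 and 41.7 in DMSO and 137, 99.9 and 126 in Chelator. It was the largest rise of the set, from a low level, with a log2 fold change of 1.68 (SE 0.35, adjusted p = 9.62e-06). RSAD2 overlaps CMPK2 on the opposite strand, which had a log2 fold change of 0.67 (SE 0.14), and the summed level of both had a log2 ratio of 0.77. MOCS1, the first enzyme of molybdenum cofactor synthesis, rose by 0.29 (SE 0.11, adjusted p = 0.0242), a call lost without DMSO replicate 2 (adjusted p = 0.0924), Chelator replicate 1 (0.116) or Chelator replicate 3 (0.0846), with centring on the mean (0.447) and with trends in GC content and length removed (0.446). LIAS, lipoyl synthase, had a log2 fold change of 0.18 (SE 0.086, adjusted p = 0.0945), which passed over coding transcripts alone (0.35, adjusted p = 0.00242), with TMM size factors (0.22, adjusted p = 0.0267) and with edgeR (0.22, adjusted p = 0.0411).

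**Figure D3:**
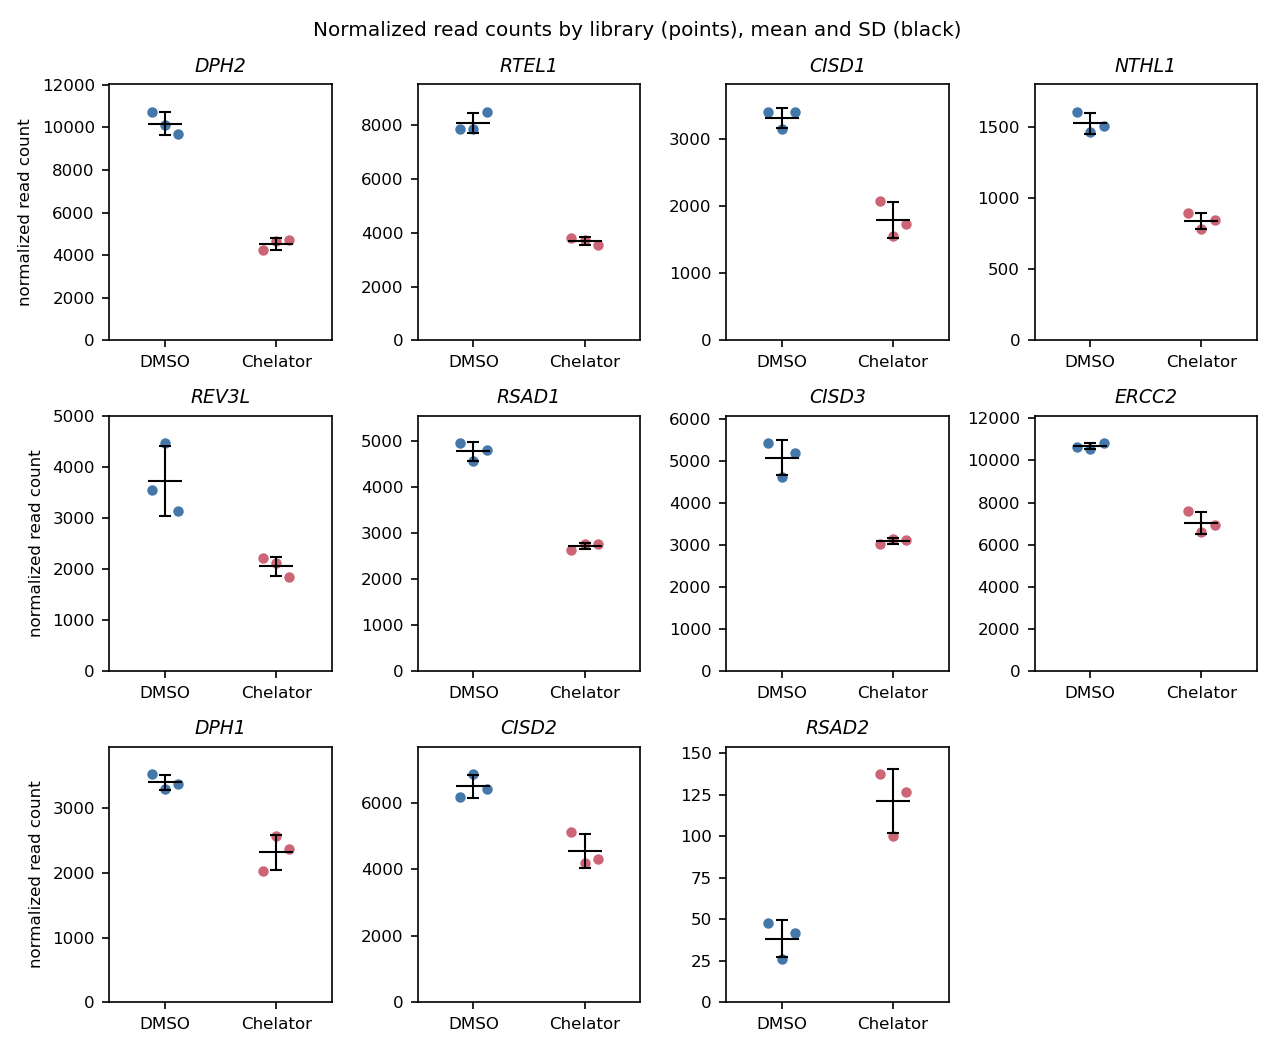
Normalized read counts (y axis, from 0) of 11 members in the 3 DMSO (blue) and 3 Chelator (red) libraries, with the group mean and SD in black. In each panel the groups do not overlap, and RSAD2, with 26.0 to 137 counts, is the only gene of the panels that was higher in Chelator.

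Of the remaining clients, ETFDH, which passes electrons from fatty acid and amino acid oxidation to ubiquinone, rose by 0.36 (SE 0.084, adjusted p = 7.03e-05), a call lost with centring on the mean (0.19, adjusted p = 0.0634). ETFDH shared 14.7% of its 31-base words with PPID on the opposite strand, which fell by 0.57 (SE 0.073), and the summed level of both had the opposite sign, a log2 ratio of -0.30. KIF4A, a chromosome-bound kinesin, had a log2 fold change of 0.10 (SE 0.080), DHX38, a splicing helicase, of -0.066 (SE 0.066), and GLRX2, the mitochondrial glutaredoxin, of -0.15 (SE 0.078). None of these 3 passed. DHX38 passed as lower with centring on the mean (-0.24, adjusted p = 0.000906), with no length offset (-0.15, adjusted p = 0.0289) and with trends in GC content and length removed (-0.23, adjusted p = 0.000101), and KIF4A passed as higher over coding transcripts alone (0.17, adjusted p = 0.00737). GLRX2 had 3679, 3368 and 3675 normalized read counts in DMSO and 3179, 3304 and 3161 in Chelator, without overlap, and it passed with no length offset (-0.40, adjusted p = 2.48e-07), with centring on the mean (-0.33, adjusted p = 0.000111), with trends in GC content and length removed (-0.20, adjusted p = 0.00681) and without DMSO replicate 2 (-0.20, adjusted p = 0.0202).

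Promoter sequences were examined because several members fell together. The windows, from 250 bases before to 50 bases after a start site, come from RefSeq on GRCh38.p14 and covered 32 of the 35 genes with 47 promoters. The sequences below are written 5′ to 3′ on the strand of the gene, with the matched element in capitals. The first 3 belong to genes that fell, DPH2 (chr1:43969760-43970059, plus strand), NTHL1 (chr16:2047785-2048084, minus strand) and CISD1 (chr10:58268912-58269211, plus strand), and hold CACGTG, the E-box. The last is RSAD2 (chr2:6877527-6877826, plus strand), which holds the core of the interferon-stimulated response element (GAAA, any 2 bases, GAAA) on the reverse strand.
DPH2 promoter: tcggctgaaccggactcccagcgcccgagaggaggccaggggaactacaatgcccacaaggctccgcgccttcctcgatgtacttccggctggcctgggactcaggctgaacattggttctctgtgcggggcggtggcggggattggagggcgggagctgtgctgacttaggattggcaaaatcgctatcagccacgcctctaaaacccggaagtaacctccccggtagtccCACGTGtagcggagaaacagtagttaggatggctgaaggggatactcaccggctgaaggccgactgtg
NTHL1 promoter: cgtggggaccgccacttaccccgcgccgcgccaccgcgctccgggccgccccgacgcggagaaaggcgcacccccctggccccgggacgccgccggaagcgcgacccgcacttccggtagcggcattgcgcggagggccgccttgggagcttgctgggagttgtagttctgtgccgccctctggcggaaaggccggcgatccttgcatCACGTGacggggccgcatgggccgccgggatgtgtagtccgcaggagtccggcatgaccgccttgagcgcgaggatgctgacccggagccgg
CISD1 promoter: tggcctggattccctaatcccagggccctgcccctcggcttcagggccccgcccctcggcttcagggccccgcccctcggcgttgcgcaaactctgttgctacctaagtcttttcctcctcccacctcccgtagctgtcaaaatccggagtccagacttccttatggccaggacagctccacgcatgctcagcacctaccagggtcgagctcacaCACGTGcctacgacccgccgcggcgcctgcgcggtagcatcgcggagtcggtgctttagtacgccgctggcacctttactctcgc
RSAD2 promoter: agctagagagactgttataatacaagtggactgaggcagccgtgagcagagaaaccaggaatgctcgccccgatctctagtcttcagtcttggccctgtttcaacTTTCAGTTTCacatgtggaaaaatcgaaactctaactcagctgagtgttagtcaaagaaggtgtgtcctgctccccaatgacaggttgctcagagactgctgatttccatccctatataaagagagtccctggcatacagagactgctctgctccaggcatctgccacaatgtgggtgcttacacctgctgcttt
CACGTG, which reads the same on both strands, was found in 6 of the 47 member promoters (12.8%; those of AOX1, CISD1, DPH2, GLRX2, NTHL1 and PPAT), beside 7.26% of all 35116 promoters and 8.85% of those of genes with an adjusted p. In DPH2, NTHL1 and CISD1 its first base lay 18, 42 and 35 bases before the start site. Of the 6 genes, 4 fell, AOX1 was near 0 and GLRX2 did not pass, beside 18 lower of the 34 members with an adjusted p. RTEL1, REV3L, RSAD1, ERCC2 and CISD3 also fell, and their promoters held no CACGTG. A link between the element and the falls was not tested. ACGTG or GCGTG on either strand, the core of the hypoxia response element, which overlaps CACGTG, was in 51.1% of member promoters and 48.4% of all promoters (57.8% of those of genes with an adjusted p). The interferon element on either strand was in 1 member promoter, that of RSAD2, 145 bases before the start site, and in 3.57% of all promoters. A match is a description of the sequence and not of binding.

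Transcript usage, the share of a gene's TPM held by each transcript, gave a second view of the members. Of 32 members tested, 9 had an adjusted p under 0.05 and 3 of these (ABCE1, POLE and POLA1) also had a transcript whose mean share changed by more than 5 percentage points (edgeR diffSpliceDGE, Simes p adjusted over all genes tested). Over the 11938 genes tested, 22.9% had an adjusted p under 0.05 and 19.0% were called. The clear case was ABCE1 (chr4:145098288-145129524, plus strand). Its transcript ABCE1-203, with no annotated reading frame, held 6.11%, 3.52% and 10.3% of the gene's TPM in DMSO and 27.5%, 29.0% and 30.9% in Chelator. Its main coding transcript ABCE1-201 held 70.1%, 71.5% and 66.9% in DMSO and 54.6%, 51.6% and 49.9% in Chelator. The shares of both transcripts were apart in every library, and the gene was called (adjusted p = 1.47e-06) under each alternative run. ABCE1-203 (chr4:145098311-145123305, plus strand) has 782 bases in 7 exons, and every base lies in exons of ABCE1-201, from its exon 1 to its exon 15 of 18, so that some of the exons between are left out. Estimated counts of ABCE1-203 were 362, 200 and 570 in DMSO and 1459, 1586 and 1480 in Chelator, against 22950 to 25929 and 12290 to 17071 for ABCE1-201. Over coding transcripts alone ABCE1 had a log2 fold change of -0.84 (SE 0.055), beside -0.46 over all its transcripts.

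POLE-211 (chr12:132681028-132687365, minus strand), a retained-intron transcript of 364 bases with 110 bases in introns of POLE-201, held 5.73%, 5.67% and 6.24% of POLE TPM in DMSO and 10.8%, 19.7% and 16.04% in Chelator (adjusted p = 0.00654 for the gene). Another retained-intron transcript, POLE-224, went the other way, from 16.2%, 18.1% and 14.8% in DMSO to 10.8%, 6.01% and 7.74% in Chelator. The main POLA1 transcript POLA1-202 held 80.5%, 84.1% and 73.6% in DMSO and 76.5%, 71.2% and 63.5% in Chelator, with overlap between the groups (adjusted p = 0.0471 for the gene). Both calls rested on the choice of test and libraries. POLE was not called with limma (adjusted p = 0.0755), a quasi-likelihood fit or a replicate block, nor without any 1 of the 5 libraries other than Chelator replicate 1. POLA1 was not called with limma, with a minimum of 50 counts or without any 1 library other than DMSO replicate 3.

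The mean share of TPM held by coding transcripts was lower in Chelator for 23 of the 32 members with a mean normalized read count of at least 10 and higher for 8, with a median change of -2.08 percentage points. Of the 13806 genes with coding transcripts above the same level, 48.8% were lower and 28.7% higher (median change 0), and above a mean count of 1000 it was 58.7% and 27.7% of 8546 genes (median -0.593), beside 22 and 8 of 30 members. The groups did not overlap for 6 of the lower and 1 of the higher members at either level, a share near that of all genes, which was 17.7% and 6.19% above a mean count of 10 and 25.4% and 7.16% above 1000. The genes that follow were picked after their values were seen. Each adjusted p given with them is that of the usage test of the gene, not of the transcript or coding share named. For CISD1 the coding transcript CISD1-201 held 67.2%, 62.7% and 71.1% in DMSO and 42.7%, 58.0% and 60.0% in Chelator, with every Chelator library below every DMSO library (adjusted p = 0.0838, and 0.00171 with limma, which called it). CISD2-205, annotated as a target of nonsense-mediated decay, held 19.6%, 15.98% and 20.6% of CISD2 TPM in DMSO and 25.8%, 38.4% and 41.4% in Chelator. The gene had an adjusted p of 0.0552. CISD2 was called with limma (0.00812), with a minimum of 50 counts (0.0347) and without Chelator replicate 1 (0.000325). Within CISD2 the transcripts moved both ways. CISD2-204, also annotated as a decay target, went from 27.0% ± 2.33 to 17.7% ± 5.35. The main coding transcript CISD2-201 went from 28.9% ± 4.37 to 34.4% ± 4.30. Another coding transcript, CISD2-202, held 15.7%, 31.1% and 17.8% in DMSO and 15.4%, 3.81% and 1.11% in Chelator. All coding transcripts of CISD2 together went from 50.4% ± 4.04 to 41.2% ± 3.52. The coding transcripts of RSAD1 together held 83.0%, 84.8% and 82.2% in DMSO and 72.9%, 65.8% and 71.8% in Chelator (adjusted p = 0.257 for usage, called with limma at 0.000314 and without DMSO replicate 1 at 7.3e-05). The transcripts ABCE1-203, POLE-211 and CISD2-205, whose shares rose, are under 1000 bases long. ABCE1-202 (786 bases) and CISD2-202 (808 bases) are also short, and their mean shares fell, from 22.5% to 16.2% and from 21.5% to 6.77%. The fragment length differed between the groups, and its part in these shares was not tested.

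**Figure D4:**
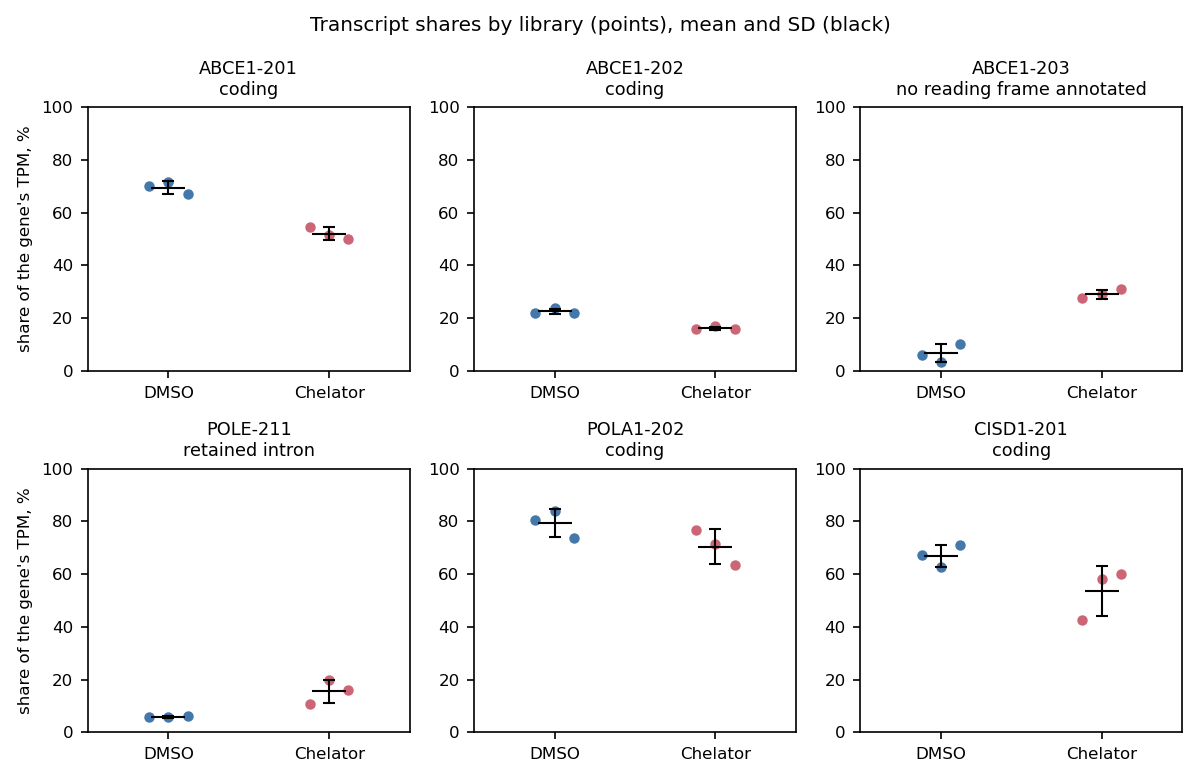
Share of the gene's TPM (y axis, 0 to 100%) held by 6 transcripts in each of the 3 DMSO (blue) and 3 Chelator (red) libraries, with mean and SD in black. ABCE1-203 rises from 3.52 to 10.3% to 27.5 to 30.9% while ABCE1-201 falls, and the POLA1-202 points of the groups overlap.

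Genes that work with the clients were taken from lists of complexes and pathways, written with earlier results of these data known. The genes named from each list are among those that passed with the largest changes. Of 56 partner genes outside the set, 21 fell and 8 rose, with a median log2 fold change of -0.13. The lower share, 37.5%, is near the 38.2% of all genes with a mean count of at least 1000, a level that 53 of the 56 reached, and the higher share, 14.3%, stands beside 24.8%. Among 9 other subunits of the polymerases and primase, 4 fell and 2 rose. POLD4, the small subunit of polymerase delta, went from 1098 ± 54.6 to 3566 ± 154 normalized read counts (log2 fold change 1.70, SE 0.087, adjusted p = 5.89e-82) while POLD1 fell. MAD2L2, the partner of REV3L in polymerase zeta, rose by 0.42 (SE 0.081) and POLE3 fell by 0.39 (SE 0.072). Of 22 replication fork genes 9 fell and 4 rose, with LIG1 (0.47, SE 0.075) and RFC2 (0.43, SE 0.10) highest and GINS4 (-0.40, SE 0.068) among the lowest.

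Of 9 other TFIIH subunits, 2 fell and 2 rose. GTF2H1 fell by 0.75 (SE 0.085) and GTF2H2 by 0.57 (SE 0.074), beside ERCC2, and GTF2H5 rose by 0.52 (SE 0.11). Of 10 other Elongator and diphthamide genes, 3 fell and none rose. DPH5 fell by 0.25 (SE 0.083) and ELP2 by 0.20 (SE 0.077). Of 6 other genes of lipoate and molybdenum cofactor synthesis, 3 fell and none rose. MOCS3 went from 1742 ± 119 to 988 ± 11.2 normalized read counts (log2 fold change -0.82, SE 0.10, adjusted p = 1.8e-15), and MOCS2 and GPHN each fell by 0.44, with MOCS1 higher in the same libraries.

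The machinery that makes and delivers clusters changed modestly. Of 11 genes of cytosolic assembly and targeting, 5 fell and 1 rose (median log2 fold change -0.21). NDOR1, which feeds electrons to the cytosolic pathway, fell by 0.46 (SE 0.068), and MMS19, an adaptor that brings clusters to DNA polymerases and helicases, fell by 0.35 (SE 0.088), while LTO1 rose by 0.28 (SE 0.10). Of 17 genes of mitochondrial assembly, 4 fell, 1 rose and 12 did not pass (median -0.031). FDX1, a ferredoxin, fell by 0.40 (SE 0.083), and FDXR, ferredoxin reductase, rose by 0.44 (SE 0.088). Of 11 cluster-holding respiratory subunits and enzymes outside the set, 3 fell and 2 rose (median -0.057), with FECH, ferrochelatase, down by 0.37 (SE 0.077), UQCRFS1, the Rieske protein, down by 0.25 (SE 0.076) and NDUFS7 up by 0.38 (SE 0.088). No gene of these 3 lists passed the 2-fold threshold. The difference between these lists and the client genes was not tested.

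**Figure D5:**
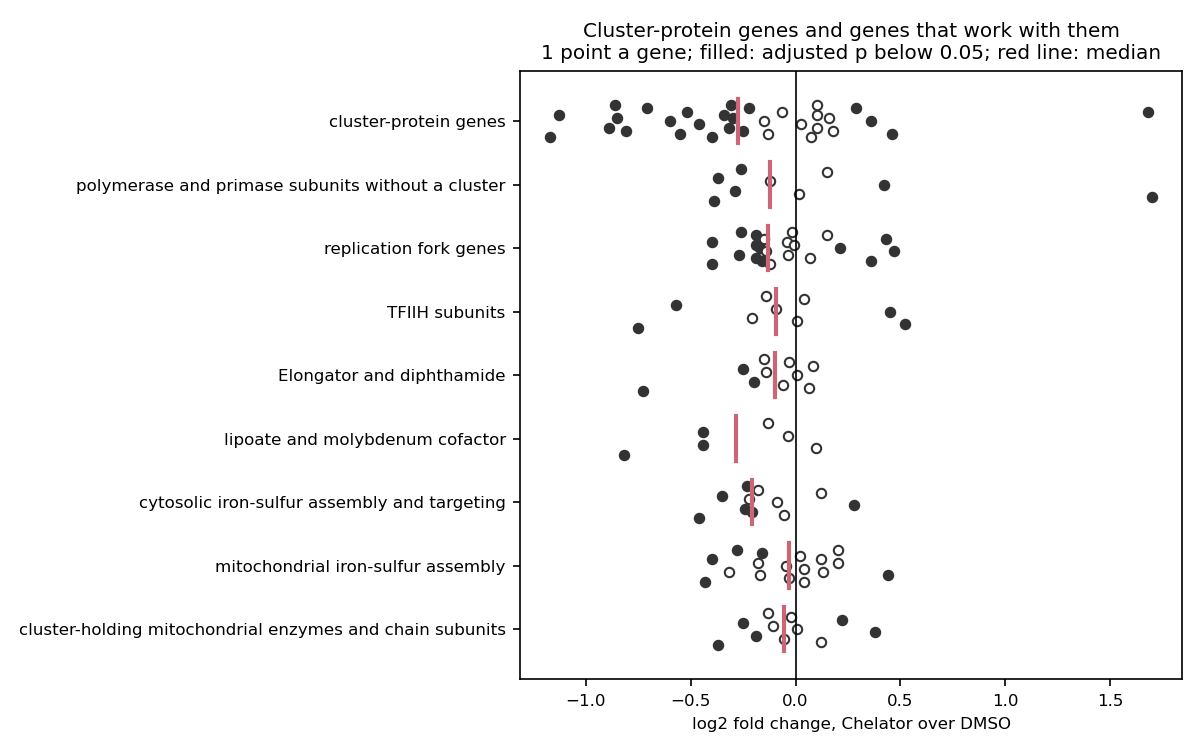
Log2 fold change (Chelator over DMSO, x axis), 1 point a gene, for the client genes and 8 lists of genes that work with them, with filled points at an adjusted p under 0.05 and a red line at each median. The median is -0.27 for the client genes, and those of the lists run from -0.28 for lipoate and molybdenum cofactor to -0.031 for mitochondrial assembly, and POLD4 at 1.70 and RSAD2 at 1.68 stand alone at the right.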

How the data were processed

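Polyadenylated RNA of K562 cells was measured in 3 DMSO and 3 Chelator libraries, grouped by their labels. The authors quantified paired reads with Salmon (v1.10.2) and deposited, per transcript, an estimated count, often fractional since shared reads are divided, and a TPM value, scaled for effective length and library. The transcript annotation and strand setting are not given in the sources used here. Of 252045 transcripts, 251142 matched GENCODE release 44 in version and length, 470 in another version and 433 not at all, and the unmatched ones (0.139% to 0.150% of counts) were left out. Coordinates are 1-based on GRCh38.

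Estimated counts were summed over 62252 genes and rounded. Genes with a total above 10 were tested with DESeq2 (1.42.0) by Wald test, with median-ratio size factors and average transcript length as an offset, and p-values were adjusted over all genes (Benjamini-Hochberg). A gene passed under 0.05, and the 2-fold threshold asked for a log2 fold change beyond 1 as well. Normalized read counts are counts divided by both factors. Usage was tested with edgeR (4.0.16) on transcripts with at least 10 counts in 3 libraries. Steps were tested on simulated data. Alternatives were edgeR's quasi-likelihood test, TMM, centring, no offset, other filters, coding transcripts alone, GC content and length trends, a replicate block, limma (3.58.1) and leaving out each library. A quasi-likelihood fit of usage was added after the data had been seen.

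The members and all gene lists were chosen with earlier results of these data known. Values per library are given for members past the 2-fold threshold, for the 10 with the largest change among those that passed (mean normalized count 100 or more), for CISD1, CISD2 and CISD3 and for usage calls, and of each partner list up to 3 genes with the largest change. Some genes that this rule took are not reported here. Per-library values of ELP3, MUTYH and GLRX2, the usage of CISD1, CISD2 and RSAD1 and the promoters were added after their values were seen. Protein sequences were not used here.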

Additional observations from a re-analysis of the deposited data

How the results depend on the processing

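Across 480 recomputed fold changes of 32 members, 429 kept their direction and side of the threshold, 19 newly passed, 17 no longer passed and 15 changed sign, all of the last in members that had not passed. Centring on the mean left 1 member higher in place of 4 and put 5 rather than 2 beyond the 2-fold threshold downward. Centring also turned POLE to -0.11, PRIM2 to -0.077, BRIP1 to -0.014, DDX11 to -0.081, EXO5 to -0.15, LIAS to -0.00026 and KIF4A to -0.074. Coding transcripts alone gave 8 members higher and POLE at -0.055. Removing trends with GC content and length put 4 members beyond the 2-fold threshold downward and turned POLE to -0.051, DDX11 to -0.14 and EXO5 to -0.065. With no length offset POLE was -0.077 and PRIM2 -0.011. Leaving out a library moved EXO5 between -0.10 and 0.17. The number of members called for usage was 6 with limma, 1 at a threshold of 10 percentage points, and 2 to 5 when each library was left out, with 5 without Chelator replicate 1. Only ABCE1 was called under every usage alternative.

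Replicates of the same number in both groups deviated with correlations of -0.00363, 0.125 and 0.0939. Between replicates of different number the correlations ran from -0.124 to 0.0459, with the lowest for replicates 2 and 3. The labels name no pairing, and whether replicates of a number share a batch was not tested. With a replicate block, 18 members were lower, 4 higher, 2 and 1 of them beyond the 2-fold threshold, and 2 were called for usage. Counts of DPYD, AOX1 and XDH were too low for a fold change, and 3 libraries a group limit the precision of all others.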
